A study of Mus musculus with 3 samples.

Results

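Lars2, Cdk8, Cmss1 and Camk1d are 4 protein-coding mouse genes in which crosslinks recovered with a Brf1/2 antibody piled up in 1 narrow stretch that was picked out for its resemblance to ribosomal RNA (rRNA). The members are all rows of the pooled crosslink list that carry these gene names, whatever their segment type: 1102 of 462392 listed positions, with 7918 of the 814493 counts. The genes were chosen on these same counts, so their levels and their concentration are described here without a test. On each gene, listed positions were joined while they lay at most 100 nt apart, and the cluster with the highest summed count is called the hot spot. The 4 hot spots hold 386 positions and 6736 counts, and the other 716 positions, called the rest of the gene, hold 1182 counts.

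The list comes from individual-nucleotide resolution crosslinking and immunoprecipitation (iCLIP). Ultraviolet light links a protein to the RNA it touches, and reverse transcription stops beside the link. A listed position is read as a likely contact, but background cannot be told apart from contacts in the pooled list. The material was total naive thymocytes of strain C57BL/6JBabr, irradiated intact at 300 mJ/cm2, with protein and RNA recovered by a Brf1/2 antibody, cut out by size after gel transfer, and sequenced as single reads of 100 nt. There were 2 wild-type (WT) libraries from independent experiments and 1 library of the double conditional knockout (DCKO) of Zfp36l1 and Zfp36l2, whose older names are Brf1 and Brf2. The sources used here do not name the Cre driver of the knockout or the number and age of the mice. Every position carries a single value, with no column that names a library, so WT and DCKO cannot be told apart at any hot spot, there is no replicate error, and the depth of each library is unknown. Of all listed positions, 50.5% carried a count of 1, 44.0% a count of 2 and 5.45% a count of 3 or more. Thymocyte markers held 10069 counts, with all 8 genes listed. Bcl11b was highest at 3281, but Cd3d held 31 and Ptcra 11. Shorter lists for B, myeloid, erythroid and thymic epithelial cells (3, 3, 2 and 3 genes) held 3, 18, 7 and 10 counts. Of the myeloid counts 16 were in Itgam, above Ptcra.

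ZFP36L1 and ZFP36L2 are zinc finger proteins that bind AU-rich elements, usually in 3′ untranslated regions (UTRs), and bring in the machinery that shortens the poly(A) tail and degrades the mRNA. The rRNA of the cytoplasmic ribosome is transcribed from tandem arrays of ribosomal DNA and is the most abundant RNA of a cell. Copies of pieces of rRNA also lie scattered through mammalian genomes, in introns, in untranslated regions and between genes, and mitochondria make their own rRNA from the mitochondrial genome. LARS2 charges mitochondrial tRNA with leucine, CDK8 is the kinase of the Mediator kinase module, CMSS1 is related to a yeast protein of the small ribosomal subunit precursor, and CAMK1D is a calcium/calmodulin-dependent kinase.

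The sequences at the strongest positions are shown so that they can be compared with ATTTA, a motif of AU-rich elements. Each is the 29 nt around 1 listed position on the gene's strand, GRCm38, with the listed base in capitals.
Lars2 strongest, chr9:123461951-123461979: agttaccacagggaTaactggcttgtggc
Lars2 second block, chr9:123462068-123462096: tgttcacccactaaTagggaacgtgagct
Cdk8 strongest, chr5:146261251-146261279: gaaaccgttaagagGtaaactggtggggt
Cdk8 second peak shown, chr5:146261138-146261166: gcccaaagcgggtgGtaaactccatctaa
Cdk8 further peak shown, chr5:146261192-146261220: agtcaacaagtaccTaagggaaagttgaa
Cmss1 strongest, chr16:57391666-57391694: acacacacgccatgGcagacggaccaagg
Cmss1 second peak shown, chr16:57391621-57391649: gagtcaggggctcgTccgaaagccgccgt
Camk1d strongest, chr2:5379325-5379353: actgtttaattaaaAcaaagcttcgcgaa
The Lars2 and Cdk8 sequences are on the plus strand and the Cmss1 and Camk1d sequences on the minus strand. The counts at the capital are 30 and 25 for Lars2, 228, 208 and 147 for Cdk8, 187 and 114 for Cmss1, and 137 for Camk1d. None of these windows holds ATTTA, although that of Camk1d is rich in A and T. In both of the first Cdk8 windows the capital opens the letters GTAAACT.

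The Cdk8 hot spot was the strongest. It spans chr5:146260991-146261340 (350 nt, plus strand) in intron 2 of the transcript with 13 exons, 1411 nt past the upstream exon and 6875 nt before the next. It held 3985 of the gene's 4108 counts, a share of 97.0% (95% Wilson interval 96.4 to 97.5%, counting error only), on 0.489% of the gene's length. Its 205 positions had a mean count of 19.4 and a median of 9, and 100 of them had a count of at least 10. The count was spread over many positions: the highest of 228 made up 5.72% of the hot spot, and a width of 278 nt was needed to hold 90% of it. A position of Cdk8 close by, at base 146261248, held 227, nearly as many. Cdk8 ranked 2 by summed count among 11719 protein-coding genes.

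The Cmss1 hot spot lies at chr16:57391457-57391680 (224 nt, minus strand) in intron 1 of 10 exons, 67914 nt from the nearer exon. It held 1828 of 1901 counts, a share of 96.2% (95.2 to 96.9%), on 0.0735% of the gene's length. Its 84 positions had a mean count of 21.8 and a median of 10, and 5 positions made up 36.9% of the hot spot. Filip1l overlaps this place on the opposite strand and held 6 counts in 4 positions over its whole length.

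The Lars2 hot spot differs in place, since it lies in the mature mRNA. It spans chr9:123461878-123462165 (288 nt, plus strand) within exon 21 of 21, inside the 3′ UTR at chr9:123461676-123462664. It was the weakest of the 4, with 361 of the gene's 385 counts, a share of 93.8% (90.9 to 95.8%). Its 65 positions had a mean count of 5.55 and a median of 3, and no position reached 50. The counts fell into separate blocks of 77 nt with 202 counts, 28 nt with 97 and 26 nt with 60, with empty stretches of 91 and 37 nt between them.

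The Camk1d hot spot held the smallest share of its gene, and its counts stood closest together. It lies at chr2:5379097-5379377 (281 nt, minus strand) in intron 3 of 11 exons, 16970 nt from the nearer exon. It held 562 of 1524 counts, a share of 36.9% (34.5 to 39.3%). A width of 9 nt held 517 of the 562 counts, 92.0% of them. Along those 9 nt of Camk1d, 5′ to 3′, the counts were 82, 65, 44, 7, 43, 137, 101, 22 and 16. The median of its 32 positions was 2, so most of the hot spot outside that peak had the low counts of the list at large.

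**Figure D1:**
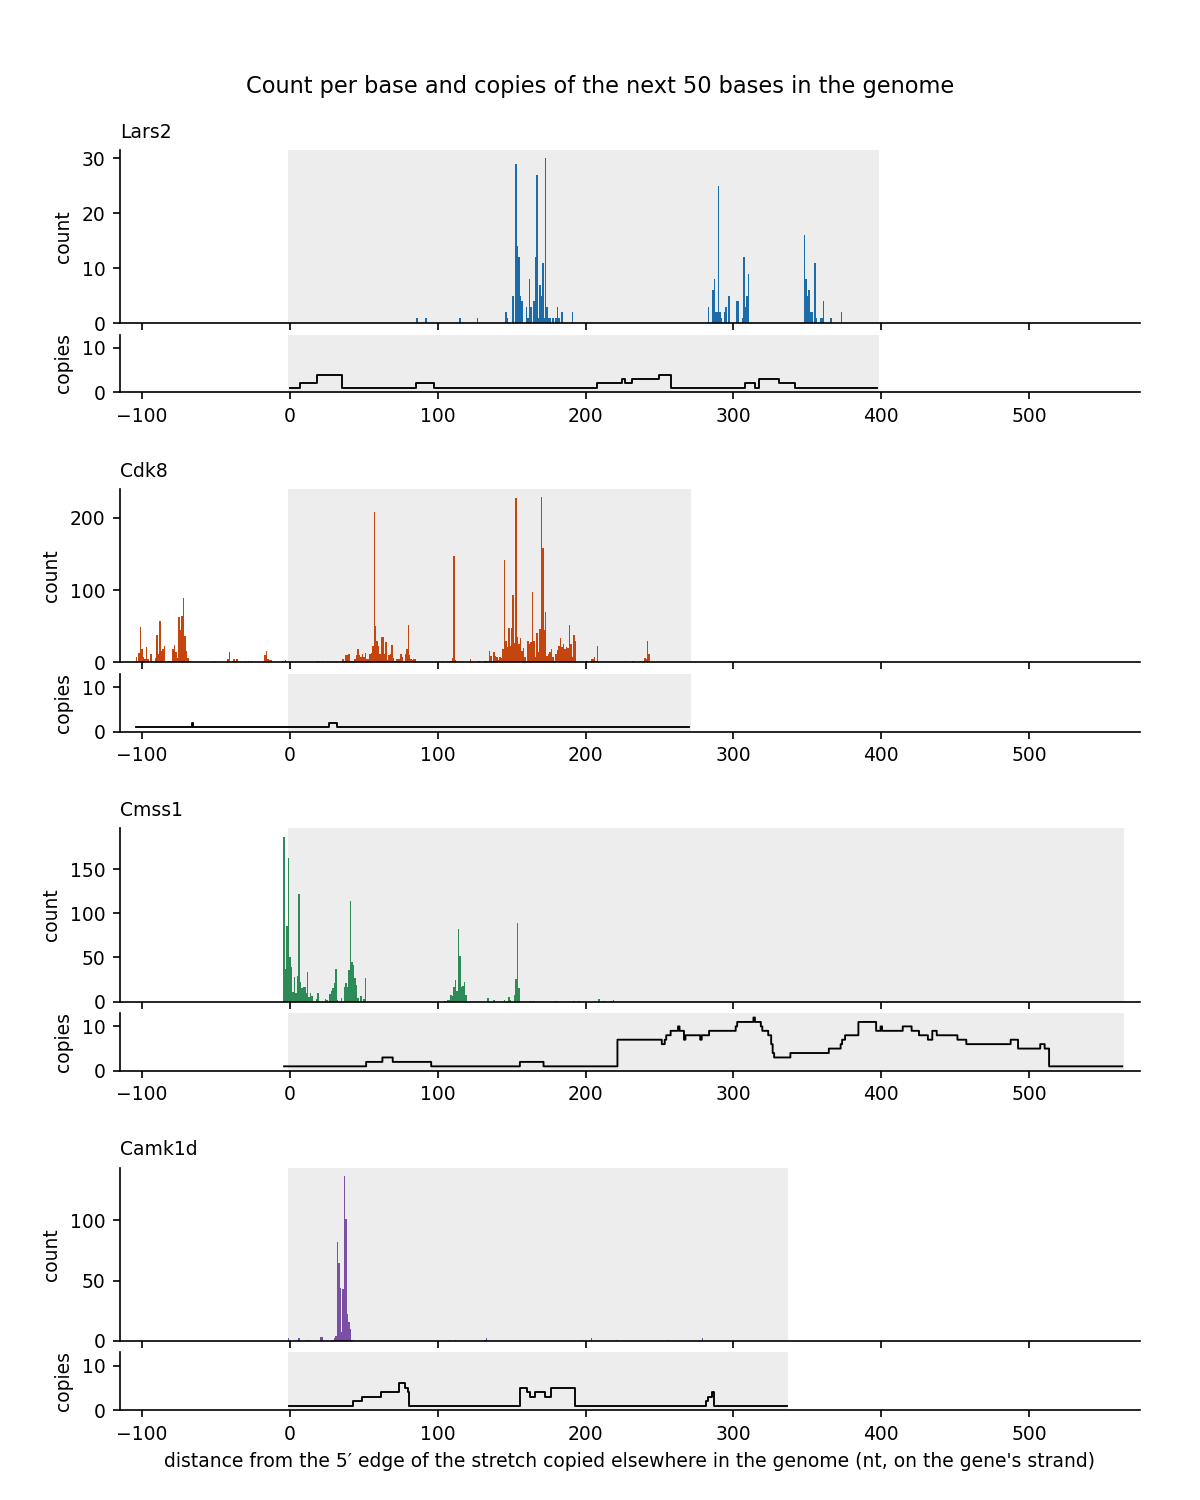
Upper panel of each pair: count per base (y axis) against distance from the 5′ edge of the stretch with copies elsewhere in the genome (x axis, nt, on the gene's strand), with that stretch shaded. Lower panel: number of exact copies on the primary chromosomes of the 50 bases that follow each base. Cdk8 counts are spread over 350 nt and Camk1d counts stand in 9 nt, and Cmss1 holds no listed position from 220 to 563 nt, where the 50 bases occur up to 12 times.

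Nearly every hot spot position passed the authors' own threshold, a false discovery rate (FDR) below 0.05, called a site here. Sites made up 376 of the 386 hot spot positions (97.4%), beside 30.7% of all listed positions, 28.8% of those labelled intron and 37.8% of those labelled 3′ UTR. All 205 Cdk8 and all 84 Cmss1 hot spot positions were sites, and so were 59 of 65 for Lars2 and 28 of 32 for Camk1d. The FDR is built on the counts that chose these genes, so nothing is read from this excess. In the rest of the genes, sites made up 27.1% of positions, most of them in Camk1d. They were 177 of 570 positions in Camk1d (31.1%), 0 of 16 in Lars2, 9 of 79 in Cdk8 (11.4%) and 8 of 51 in Cmss1 (15.7%). The same count does not carry the same FDR in each gene. An intron position with 4 counts within 15 nt had an FDR of 0.364 in Cdk8, 0.0032 in Cmss1 and 0.0018 in Camk1d. The site shares of single genes can therefore not be ranked against each other or against the background.

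Among the 1596 protein-coding genes with at least 100 counts, the strongest cluster held a median of 9.70% of the count, and 12 genes reached 90%. Cdk8, Cmss1 and Lars2 ranked 3, 5 and 11, and Camk1d ranked 122. By this measure of likeness, genes close to them were Vmn2r7 (100% of 131 counts), 1110001J03Rik (99.4% of 180), Cntnap5b (96.3% of 108), Cxcr4 (95.4% of 476), Mllt11 (95.1% of 102), mt-Nd1 (94.6% of 222) and Aptx (93.9% of 344). Several of those clusters were much narrower: 20 nt in Vmn2r7 and in Aptx, 23 nt in 1110001J03Rik and 16 nt in Cntnap5b, against 224 to 350 nt for the 3 members that passed 90%. Mllt11 had 109 nt, mt-Nd1 lay within the range of the members at 312 nt, and Cxcr4 was wider at 576 nt. None of these 7 clusters matched a member's hot spot.

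**Figure D2:**
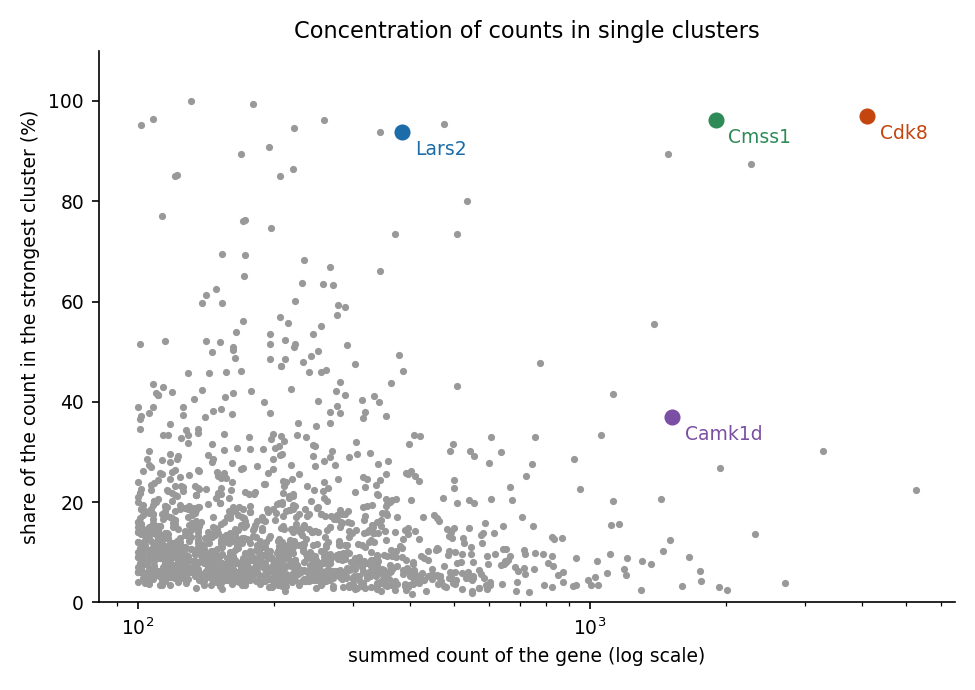
Share of a gene's count in its strongest cluster (y axis, %) against its summed count (x axis, log scale) for the 1596 protein-coding genes with at least 100 counts, each a point. Cdk8 and Cmss1 stand at the upper right with 97.0 and 96.2%, Lars2 has 93.8% at 385 counts, and Camk1d has 36.9%.

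The resemblance to rRNA was examined in the reference. Each hot spot with 50 nt on either side was aligned to 424 annotated rRNA and rDNA-like sequences, and 0 of 4 matched at 90% identity over 30 nt or more. The set includes 420 nt of Rn28s1, the rRNA of the large ribosomal subunit, so most of that molecule was not compared here and the match named in the choice of these genes was not tested against it. No hot spot aligned to another. Alignments short of 30 nt or of 90% identity, with a bit score of at least 26, were found with mt-Rnr2, the mitochondrial large-subunit rRNA. They covered 27 nt at 85.2% identity in Cdk8, 71 nt at 73.2% and 19 nt at 89.5% in Camk1d, and 19 nt at 89.5% in Lars2. All were in the sense direction. The 71 nt alignment was the strongest, with a bit score of 43.7 and an E-value of 2.6e-06, and the other mt-Rnr2 alignments had bit scores of 26.5 to 28.3. Other annotated rRNAs gave alignments like those weaker ones. They were 17 nt at 94.1% with Gm27355 in Cdk8 (27.4) and 29 nt at 79.3% with Gm25368 in Camk1d (26.5), the latter antisense. The first of these lies in the flank of the hot spot, and the second mostly so. Cmss1 had no alignment to the rRNA set with a bit score of at least 26. The 19 nt alignments are shown so that the letters can be compared, with the mismatched bases in capitals.
Camk1d, chr2:5379069-5379087, minus strand: agaagaccctGtTgagctt
mt-Rnr2, chrM:2157-2175: agaagaccctAtGgagctt
Lars2, chr9:123461950-123461968, plus strand: aagttaccACagggataac
mt-Rnr2, chrM:2362-2380: aagttaccCTagggataac
Each pair differs at 2 of 19 bases, and the Lars2 stretch contains that gene's strongest position. The Camk1d stretch lies in the flank of its hot spot and holds no listed position. These 19 nt pairs fall short of the threshold used for a match, and whether the sequences are related was not tested.

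The hot spots lie in stretches that occur elsewhere in the genome. Aligning each with 1000 nt on either side to the genome at 85% identity gave a copied stretch of 398 nt at chr9:123461792-123462189 in Lars2, 271 nt at chr5:146261095-146261365 in Cdk8, 564 nt at chr16:57391113-57391676 in Cmss1 and 337 nt at chr2:5379040-5379376 in Camk1d. Up to 11, 4, 18 and 19 other places covered 1 base of them. The stretches of Cdk8 and Cmss1 were richer in G and C (58.3 and 61.3%) than the 500 nt on either side (41.4 and 43.1%), whereas those of Lars2 (50.5 against 48.4%) and Camk1d (51.3 against 48.3%) were close to theirs. They contained little annotated repeat, 0.532 to 6.23% of bases against 12.6 to 23.2% in the flanks.

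The edges show where crosslinks lay relative to the copied stretch, which is in capitals below.
Cmss1 5′ edge, chr16:57391662-57391690, minus strand: acacgccatggcagACGGACCAAGGAGTC
Camk1d 5′ edge, chr2:5379362-5379390, minus strand: acaaaataattcccCTGGTGAGGACCAGG
Cdk8 3′ edge, chr5:146261351-146261379, plus strand: CCCGCACCCTGTTCCaaaaaaaaaaaaaa
Lars2 3′ edge, chr9:123462175-123462203, plus strand: AGAGGAACCGCAGCTagcttgtgtctcca
In Cmss1 the first listed position lay 4 nt before the edge and held the gene's highest count, 187, and 973 counts (53.2%) lay between 10 nt before and 30 nt after it. The 473 counts before the edge made Cmss1 the hot spot with the smallest share inside, 74.1%, although all of them lay within 20 nt of it. All Lars2 and 99.6% of Camk1d hot spot counts lay inside the copied stretch. In Cdk8 776 counts (19.5%) lay up to 104 nt upstream of it, and its 3′ edge ran into a row of A. The Cdk8 bound rests on few and short copies and is a lower limit of the stretch.

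At the stricter limit of 30 nt and 90% identity there were 56 alignments, 16 of the Lars2 stretch, 1 of Cdk8, 20 of Cmss1 and 19 of Camk1d. Each alignment is called a copy here, although neighbouring ones can be parts of 1 place. Such neighbours lie at chr13:107121701-107122085 for Cmss1 and chr13:112578183-112578750 for Camk1d. Of the 56, 37 held listed counts on the strand that reads like the hot spot, 2523 in all. The authors labelled 23 of the 37 intergenic. The opposite strand of the copies held 0 counts, which allows up to 0.119% of the sense count, and that of the hot spots themselves held 0 (up to 0.0445%), counting error only. The highest counts were 605 at a Cmss1 copy at chr8:15519775-15520122, 493 at another Cmss1 copy between genes, 234 at a Camk1d copy at chr3:5860319-5860632, 205 at a Lars2 copy at chr6:49236450-49236617 and 189 at a Lars2 copy in Gm15564 at chr16:35981655-35981821. The only Cdk8 copy, chr16:4590344-4590448, held 102. Other copies lay in named genes at low counts, such as 17 in Gphn for Lars2 and 70 in Kcnip1 for Cmss1, and a Camk1d copy overlaps mmu-mir-6240 with 26. Copies share sequence with the hot spots, so a read from 1 place can be assigned to another.

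Some places of the genome align to several hot spots in a row. On chromosome 9 a stretch of 1334 nt aligned to Cmss1, Camk1d and Lars2 in that order on 1 strand, at 74.0, 79.5 and 79.4% identity. On chromosome 14 a stretch of 1543 nt held the same 3 in the same order. Chromosomes 5 and 17 each held Camk1d followed by Lars2, within 470 and 815 nt. The order was the same in all 4 places, and no such place included Cdk8. In mt-Rnr2 the alignments start at base 112 for Cdk8, 934 (71 nt) and 1064 (19 nt) for Camk1d and 1269 for Lars2. An order that rests on so few alignments, most of them short and weak, is given only as a value.

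**Figure D3:**
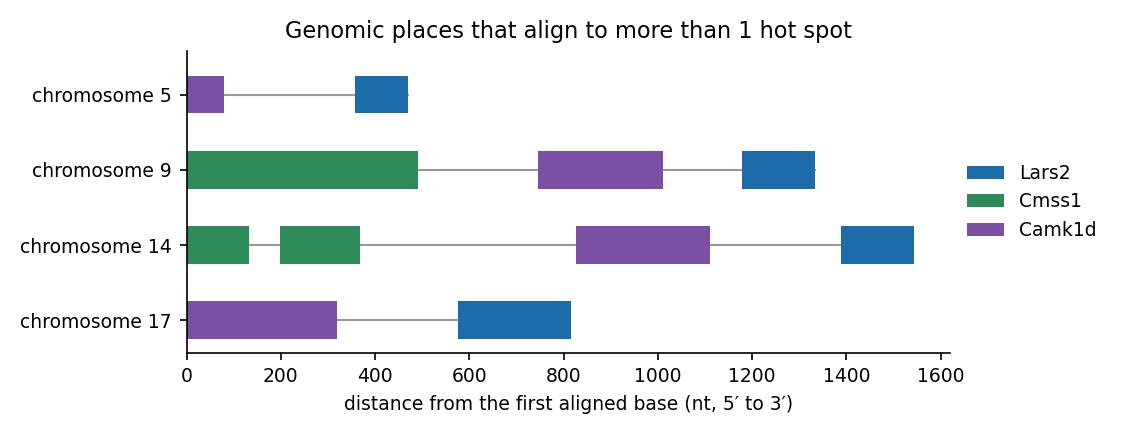
The 4 genomic places that align to more than 1 hot spot, one per row, against distance from the first aligned base (x axis, nt, 5′ to 3′). Coloured blocks are alignments to Cmss1, Camk1d and Lars2, and in each row the order is Cmss1, Camk1d, Lars2 or Camk1d, Lars2.

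How far counts followed sequence that is unique in the genome depended on the length compared. Copies were counted over the primary chromosomes alone, so copies in rRNA sequence outside them, such as the entry Rn28s1, were not seen. The 1679 bases of the copied stretches and hot spots were each judged by the 30 bases that follow. Those occurred once for 46.6% of bases, which held 81.3% of the count. This was uneven: in Cmss1 23.1% of bases were unique and held 83.0% of the count, in Camk1d 54.4% held 99.1%, and in Lars2 41.0% held 55.4%, whereas in Cdk8 81.1% of bases held 80.4%, with a mean count of 10.5 at unique and 11 at repeated bases. With 20 bases, 33.1% were unique and held 57.1% of the count, and in Lars2 the share of the count was below that of the bases (22.2% of the count on 28.1% of bases). With 50 bases, a length added after seeing the data, 1119 bases (66.6%) were unique and held 6714 of 6736 counts (99.7%), and the other 560 held 22. The 352 Cmss1 bases with a repeated 50-mer held 2 counts. Some stretches with no repeated 50-mer were also empty, such as the last 24 nt in Lars2, 25 nt in Cdk8 and 34 nt in Camk1d. In the rest of the genes, 715 of 716 positions had a unique 50-mer. The number of places to which each read aligned is not in the list, so its part in the shape of the hot spots was not tested.

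The sequence under the hot spots differed from that under the rest of the same genes. A T stood at 65 of the 386 hot spot positions (16.8%), against 434 of 716 in the rest (60.6%) and 57.3% of all listed positions. Each gene had this difference: 21.5% against 62.5% in Lars2, 16.6 against 58.2% in Cdk8, 13.1 against 58.8% in Cmss1 and 18.8 against 61.1% in Camk1d. Base composition was set beside this. T made up 28.5, 16.6, 11.2 and 20.6% of all bases of the 4 hot spots and 29.2 to 30.6% of the 4 genes. Weighted by count, T made up 30.7, 22.7, 12.2 and 27.2% of the hot spots of Lars2, Cdk8, Cmss1 and Camk1d, above its share of their bases in each, and 60.4% of the rest. G was the most frequent base at hot spot positions in Lars2, Cdk8 and Cmss1 (35.2% over all 4 hot spots, 12.8% in the rest), and A was in Camk1d (37.5%). At the listed positions of Lars2, Cdk8 and Cmss1 G made up 30.8, 38.5 and 36.9%, beside 27.1, 34.3 and 38.4% of all bases of those hot spots. Weighted by count, G led in Cdk8 alone (36.2%), with T ahead in Lars2 (30.7 against 26.3%), C in Cmss1 (38.7 against 35.4%) and A in Camk1d (51.4%).

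**Figure D4:**
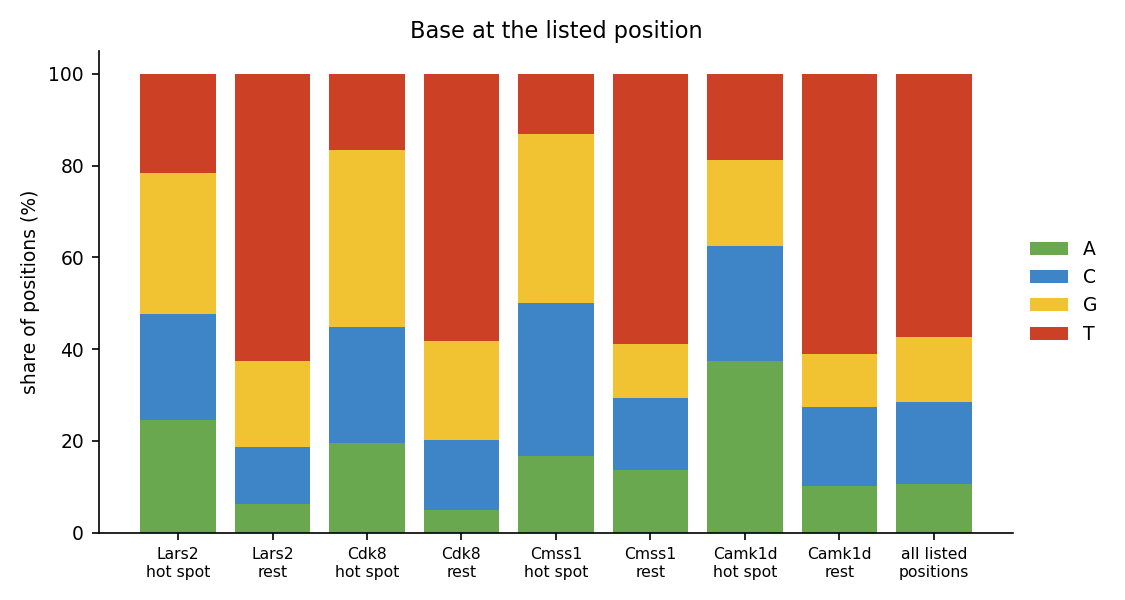
Share of positions (y axis, %) with A, C, G or T at the listed base, for the hot spot and the rest of each gene and for all 462392 listed positions. T stands at 13.1 to 21.5% of hot spot positions and at 58.2 to 62.5% of rest positions, where all listed positions have 57.3%.

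The AU-rich core was missing from the hot spots and present in the rest. TATTTA was searched on the gene's strand within 20 nt of each position and was found near 0 of 386 hot spot positions. The shorter ATTTA, which lies inside it, was also found near 0. The same held for a run of T, the motif TTTTTT. In the rest of the genes TATTTA stood near 117 of 716 positions (16.3%), beside 10.6% of all listed positions, 10.6% of those labelled intron and 15.4% of those labelled 3′ UTR. By gene this was 103 of 570 in Camk1d (18.1%), 9 of 51 in Cmss1 (17.6%), 4 of 79 in Cdk8 (5.06%) and 1 of 16 in Lars2 (6.25%). The last of these rest on few positions, and a missing motif says only that these letters are not in the window. Neighbouring positions share their window and are not independent.

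Outside their hot spots Camk1d and Cdk8 held more counts per length than most genes, whereas Lars2 and Cmss1 lay just below the median. Per kb of gene, the rest held 2.29 counts in Camk1d, 1.73 in Cdk8, 0.251 in Lars2 and 0.240 in Cmss1. Among 11719 protein-coding genes, with the strongest cluster of each left out in the same way, these stood at percentiles 88.1, 82.5, 41.4 and 40.8, with a median of 0.429. The hot spots held 1253 counts per kb in Lars2, 11386 in Cdk8, 8161 in Cmss1 and 2000.0 in Camk1d. Within 5 kb of the hot spots lay 0, 3, 1 and 10 rest positions of Lars2, Cdk8, Cmss1 and Camk1d. In all, the rest held 16, 79, 51 and 570 positions in genes of 95.7, 71.6, 305 and 421 kb. Whether fewer lay near the hot spots than elsewhere in the gene was not tested. No rest position of Lars2 exceeded a count of 2, and the highest were 4 in Cdk8 and 3 in Cmss1.

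The rest of Camk1d fell into 340 clusters, of which a few with high counts are described here. The largest, at chr2:5654497-5654877, had 48 positions and 105 counts, with TATTTA within 20 nt of 43 of them. A cluster of 20 positions and 57 counts at chr2:5606435-5606482 lies in a tandem run of ATTT, with TATTTA near 18. The cluster at chr2:5656058-5656134 held 40 counts in 13 positions, and the one at chr2:5709968-5709974 held 40 in 3, of which 33 stood on 1 base. TATTTA lay near every position of those 2. A cluster of 12 positions and 25 counts at chr2:5671528-5671543 had none near it. In the Camk1d 3′ UTR, 4 positions at chr2:5295870-5295888 held 10 counts, all with TATTTA nearby. The sequences below contrast with the hot spots and are from the minus strand, with the listed base in capitals.
Camk1d, chr2:5606433-5606461: tttatttatttattTatttatttatttat
Camk1d, chr2:5654683-5654711: tttatatattattgTgtgtatctctgtgt
Camk1d, chr2:5709955-5709983: gaccaggtgcacctCatttctatttaagt
Cmss1, chr16:57325674-57325702: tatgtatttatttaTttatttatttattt
The counts at the capital were 7, 10, 33 and 2. The Cmss1 sequence belongs to that gene's strongest rest cluster, which held 5 counts, and the strongest rest cluster of Cdk8 held 20 counts at chr5:146292528-146292624.

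Among the genes that work with the members, 10 genes of the lists below held at least 100 counts, and the only 3 of them with 50% or more in 1 cluster were Lars2, Cdk8 and Cmss1. Over all 14592 gene names of the list, 59.7% had at least 1 site, and the counts of genes with a site below are to be read beside that. Of 17 mitochondrial aminoacyl-tRNA synthetases, 16 were listed and 13 had a site, and Fars2, the enzyme for phenylalanine, was the only other with at least 100 counts: 271, of which its strongest cluster held 2.95%. All 7 genes of the Mediator kinase module were listed and had a site. The scaffold gene Med13 held 723 counts with 25.2% in its strongest cluster, Med13l 521 with 2.69%, and Cdk19, the paralog of Cdk8, 192 with 5.21%. Of 24 genes of the small-subunit processome and pre-rRNA processing, all were listed and 13 had a site, and Cmss1 was the only one above 100 counts, with Bms1 next at 59 and Wdr43 at 58. Of 11 calcium/calmodulin-dependent kinase genes, 10 were listed and had a site. Camk4, a kinase of T cells and neurons, held 1938 counts with 26.9% in its strongest cluster, and Camk2d held 217 with 12.0%.

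Strongest clusters that resembled the hot spots were rare among the 1596 genes. In 3 genes the strongest cluster aligned to a member's hot spot over at least 30 nt at 90% identity. That of Gphn aligned to Lars2 over 159 nt at 98.1% and held 35 counts, 15.6% of the gene. Nfkbia, the NF-kappa-B inhibitor gene, matched 30 nt in the flank of the Cdk8 hot spot, a stretch with 79.3% A. That of Spata5 aligned to Cmss1 over 247 nt at 92.3% and held 16 counts. The annotated rRNA set matched the strongest cluster of 2 other genes, Ssbp2 (Rn4.5s, 52 nt at 90.4%) and Kdm5a (Gm27959, 30 nt at 90%).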

How the data were processed

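The authors' deposited list pools the series into 1 value per stranded position, and the sources used here do not say which libraries it covers. The submitters' processing notes name Bowtie and GRCm38, without versions. The deposited count per position carries the strand as its sign and is treated as a score, as is the deposited FDR, and the deposited p-value was not used as a test. Positions in the list count from 0, as checked at coding exon edges, and coordinates here count from 1.

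The members and lists were chosen with earlier results of these data known. No test was run. Exons came from GENCODE vM21 and sequence from the RefSeq GRCm38.p6 genome. Alignments used blastn 2.17.0 with a word size of 11 and an E-value of at most 0.001, or, against annotated rRNA, a word size of 7 and at most 10, which is more sensitive than the word size planned. The collinear places need bit scores above 60 within 6000 nt. Exact copies of 20, 30 and 50 bases were counted over both strands of the primary chromosomes. Scripts were checked on simulated data with planted stretches. Intervals are 95% Wilson intervals and cover counting error only.

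Genes named besides the members are others among the 10 with the highest share in 1 cluster (1 is not reported here), those whose cluster matches rRNA or a hot spot, overlapping genes, and up to 4 genes of each list by count. For Utp4 the list's older symbol, Cirh1a, was used. Copies, clusters, bases and sequences printed were picked for their values. The closing section gives the alternatives tried.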

Additional observations from a re-analysis of the deposited data

How the results depend on the processing

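The number of hot spots matching rRNA (0) and the absence of TATTTA in the hot spots did not move under the alternatives run for them, nor did the count outside the hot spot with a joining gap of 500 nt. With a gap of 50 nt, chosen for this count after seeing the data, it was 181 in Lars2 and 510 in Cmss1. The share of count in the strongest cluster did move under several settings. With that gap it was 53.0% in Lars2 and 73.2% in Cmss1, whose hot spots then split. With each position weighing 1 it was 80.2% in Lars2, 72.2% in Cdk8, 62.2% in Cmss1 and 7.97% in Camk1d, where another cluster became the strongest. With counts of 1 or 2 left out it was 57.5, 99.8, 99.8 and 75.6% in the same order, and with sites only 100, 99.6, 99.2 and 57.6%. A fixed window of 300 nt gave 94.4% in Cdk8. At an FDR below 0.01, which 24.5% of all positions passed, sites made up 68.8% of the Camk1d hot spot. TATTTA stood near 21.6% of rest positions within 50 nt, and near 25.2% of the rest when weighted by count. The k-mer lengths of 20 and 50 nt were chosen after seeing the data: counts at unique 20-mers made up 22.2, 64.3, 36.0 and 97.2%, in the order above, and at unique 30-mers 55.4, 80.4, 83.0 and 99.1%. No paired analysis was possible because the list has no column per library. The list gives no depth per library, so no difference between WT and DCKO could be measured at any hot spot.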
